A study of Homo sapiens with 12 samples.

Results

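The data described here are the exonic and intronic RNA-sequencing reads of 36 genes of the hypoxia response and of glycolysis, taken from the 44147 genes listed for CCRF-CEM leukemia cells. The 36 were picked by gene symbol, from classical targets and regulators of the hypoxia-inducible factor HIF and from the enzymes that break glucose down to lactate. They were put forward with the exonic and intronic reads of these same libraries already known, so every value and call given for them below describes these libraries and is no independent evidence that the group as a whole responds. All 36 passed the filter on low exonic counts, and 35 of the 36 were tested on intronic reads, since ADM has no intronic read in any library.

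CCRF-CEM is an established human T lymphoblast leukemia line. The knockout cells carry a disrupted SLFN11 gene, which encodes a Schlafen family protein that acts at stalled replication forks, and the parent cells are wild type for it. Prexasertib inhibits the checkpoint kinase CHK1, and the comparison of both lines with and without it was meant to show how SLFN11 changes transcription under replication stress. The 4 groups, with 3 libraries each, were knockout cells labelled prexasertib (100 nM for 6 h), knockout cells labelled DMSO, parent cells labelled prexasertib (100 nM for 6 h) and parent cells labelled DMSO, the solvent. All cells were kept in RPMI1640 medium with serum, with no oxygen condition named. The labels give neither the duration of DMSO nor whether the knockout line is 1 clone. Nor do they tell whether a group's libraries derive from independent cultures; its spread, on which each p-value rests, may therefore be technical.

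A conflict over treatment precedes every result. For all 12 libraries, the name given in a record's title is that of a file found under the opposite treatment (same line). Groups here follow the record under which each file was deposited, hence the words labelled prexasertib and labelled DMSO. Should the names in the titles be right, the sign of every treatment difference and of the interaction (the treatment difference in knockout cells less that in parent cells) turns round, and, with no change of sign, the comparison of the lines under labelled prexasertib becomes the one under DMSO and the reverse. The libraries held 47887791 to 77548202 exonic reads. Intronic reads made up 23.9 to 26.4% of the reads in 11 libraries and 30.3% in replicate 1 of the parent cells labelled prexasertib, which also stood farthest from its own group; members whose calls change without it are named with each comparison. SLFN11 had 85.0, 90.7 and 89.4 exonic CPM (counts scaled to a common library size) in knockout cells labelled prexasertib, 65.9, 66.6 and 69.1 in knockout cells labelled DMSO, 117, 119 and 117 in parent cells labelled prexasertib and 100.4, 91.2 and 95.2 in parent cells labelled DMSO. Its exonic level was lower in the knockout line in both comparisons of the lines, with a log2 fold change of −0.41 under labelled prexasertib and −0.51 under labelled DMSO, whereas its intronic level was higher, by 0.61 and 0.37 on the log2 scale; the labels do not give the disrupted stretch, so these values do not check the disruption. All 10 T-lineage markers were read in all 12 libraries, with summed levels of 1552 to 1653 CPM in the knockout libraries and 1295 to 1533 CPM in the parent libraries, which do not overlap. Of 5 B-lineage markers 4 were read in all libraries, and they summed to 40.7 to 43.7 CPM in the knockout libraries and 25.1 to 34.9 CPM in the parent libraries, nearly all of it CD79A and CD79B; MS4A1 had no read, and PAX5 stayed at or below 0.445 CPM. Of 5 myeloid markers 2 were read in all libraries, with at most 1.67 CPM in sum. Of 7 epithelial, fibroblast and erythroid markers 3 were read in all libraries, with 11.3 to 12.9 CPM in the knockout libraries and 2.97 to 4.36 CPM in the parent libraries. The part of these in the results below was not tested. In bulk RNA, fewer cells of a kind and less RNA per cell cannot be told apart.

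HIF is a transcription factor made of an oxygen-controlled alpha subunit, such as HIF1A, and a stable beta subunit, ARNT. In oxygen, the prolyl hydroxylases EGLN1 and EGLN3 mark the alpha subunit for destruction. Without oxygen, or when other signals stabilise it, the alpha subunit accumulates and HIF binds a short sequence, the hypoxia response element, near genes for blood vessel growth, pH control, mitochondrial turnover, glucose uptake and nearly every step of glycolysis. Leukemia cells use much glycolysis even in oxygen, and several of these genes are also controlled by other factors, such as MYC and stress-activated factors.

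The promoters of members that the results turn on are shown first. From the 300 bases around each start in RefSeq (250 before it and 50 after it, build GRCh38.p14), 5 windows were chosen: those of the 4 members whose intronic reads changed most in knockout cells among members with at least 1000 intronic reads, and of ADM, which has no intronic read. Capitals mark ACGTG or GCGTG, the core of the hypoxia response element, on either strand (so CACGT and CACGC as well), with overlapping matches joined.
BHLHE40, chr3:4979187-4979486, plus strand: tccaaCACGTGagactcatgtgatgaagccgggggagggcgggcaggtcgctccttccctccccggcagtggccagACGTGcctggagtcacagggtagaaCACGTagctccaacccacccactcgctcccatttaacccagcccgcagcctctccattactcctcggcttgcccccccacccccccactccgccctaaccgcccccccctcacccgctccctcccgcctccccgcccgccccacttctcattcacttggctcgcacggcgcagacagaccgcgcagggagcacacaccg
BNIP3, chr10:131981874-131982173, minus strand: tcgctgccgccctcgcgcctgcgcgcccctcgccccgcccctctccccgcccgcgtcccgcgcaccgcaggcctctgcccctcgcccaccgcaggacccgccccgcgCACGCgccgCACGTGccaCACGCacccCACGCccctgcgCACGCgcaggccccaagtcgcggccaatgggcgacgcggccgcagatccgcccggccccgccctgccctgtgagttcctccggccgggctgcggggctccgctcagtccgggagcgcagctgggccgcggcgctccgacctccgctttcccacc
ANKRD37, chr4:185396591-185396890, plus strand: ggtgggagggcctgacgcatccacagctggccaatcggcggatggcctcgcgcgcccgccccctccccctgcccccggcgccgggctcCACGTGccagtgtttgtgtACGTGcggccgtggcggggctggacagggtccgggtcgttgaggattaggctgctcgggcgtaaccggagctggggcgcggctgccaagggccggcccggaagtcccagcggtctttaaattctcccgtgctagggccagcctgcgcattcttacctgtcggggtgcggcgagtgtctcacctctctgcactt
ENO1, chr1:8878637-8878936, minus strand: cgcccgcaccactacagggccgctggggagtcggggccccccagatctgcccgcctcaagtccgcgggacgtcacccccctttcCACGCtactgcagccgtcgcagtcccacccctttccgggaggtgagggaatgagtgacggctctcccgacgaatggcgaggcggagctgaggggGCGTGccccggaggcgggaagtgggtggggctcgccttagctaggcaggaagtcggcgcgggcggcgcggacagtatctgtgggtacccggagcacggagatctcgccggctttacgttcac
ADM, chr11:10304823-10305122, plus strand: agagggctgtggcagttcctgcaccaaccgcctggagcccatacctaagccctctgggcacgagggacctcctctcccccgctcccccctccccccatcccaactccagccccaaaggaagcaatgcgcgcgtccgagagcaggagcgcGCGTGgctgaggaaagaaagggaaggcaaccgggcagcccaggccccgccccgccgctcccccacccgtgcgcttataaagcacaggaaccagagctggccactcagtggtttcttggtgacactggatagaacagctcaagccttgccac
The BNIP3 window held 5 such stretches, a number reached or passed by 0.994% of all 35116 promoter windows in the table. BHLHE40 had 3, which 7.54% of all windows reach or pass. ANKRD37 and ENO1 had 2 each, reached or passed by 20% of all windows, and ADM had 1, reached or passed by 48.4%. Over the 32 members with an entry, 29 had the core in at least 1 of their windows (90.6%), against 14318 of all 27305 genes (52.4%). Counted by window, 38 of the 52 windows of members held it (73.1%), against 48.4% of all windows. Members have more windows per gene (52 for 32 members, against 35116 for 27305 genes), which can raise their share counted by gene. The windows of a gene can overlap, and the letters alone do not show that a factor binds there. SLC2A3, BNIP3L, NDRG1 and VEGFA had no entry. MIR210HG is the host transcript of the microRNA miR-210, a small RNA induced with HIF, whose mature strand is given with its seed (bases 2 to 8) in capitals.
hsa-miR-210-3p, chr11:568112-568133, minus strand: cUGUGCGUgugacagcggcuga

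The members spanned a wide range of levels. On the length-scaled TPM scale, which allows genes to be compared, GAPDH, the enzyme that oxidises glyceraldehyde 3-phosphate, was highest, with a median of 2206 TPM over the 12 libraries. The enolase gene ENO1 followed with 1104 TPM, then TPI1 (triose phosphate isomerase) with 419 TPM, PGK1 (phosphoglycerate kinase) with 359 TPM, ALDOA (aldolase) with 294 TPM and LDHA, which turns pyruvate into lactate, with 240 TPM. The prototypical HIF targets lay far lower: SLC2A1, the main glucose transporter, had a median of 12.3 TPM, BNIP3 11.9 TPM, VEGFA 1.95 TPM and ADM 1.52 TPM. EGLN3 and P4HA2 were barely read, at 0.0694 and 0.0821 TPM. HIF1A itself had 31.3 TPM.

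Labelled prexasertib against labelled DMSO in knockout cells moved 18 of the 36 members in exonic reads, 11 higher and 7 lower. Secreted factors, the transcription factor BHLHE40, glucose transporters and HK2 were among the higher ones, and the mitophagy receptors BNIP3 and BNIP3L among the lower ones, while the 10 enzymes from aldolase to lactate dehydrogenase lay between −0.10 (ENO1) and 0.04 (ENO2) on the log2 scale and were not called. Over all 23045 genes tested, 6.11% were called higher and 6.83% lower in this comparison; since the reads behind it were known when the members were picked, nothing is read from the difference. The median log2 fold change of the members was −0.07, against −0.00 for all genes. The libraries of the groups did not overlap in 26 of the 36 members, and in 34.3% of all genes.

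ADM encodes adrenomedullin, a secreted peptide that widens vessels and is strongly induced by HIF. It lies at chr11:10326227-10328944 (hg19, as all gene positions below). Its exonic level was 7.56, 7.95 and 6.99 CPM in knockout cells labelled prexasertib, against 2.37, 3.05 and 2.23 CPM in knockout cells labelled DMSO. All 3 libraries of the labelled prexasertib group were above those of the other, with a log2 fold change of 1.56 (SE 0.14, edgeR adjusted p = 5.49e-09). VEGFA, the main growth factor for blood vessels, had 22.3, 22.1 and 21.6 CPM, against 11.19, 11.3 and 10.8 CPM in the same order. Again the groups were apart, with a log2 fold change of 0.99 (SE 0.06). BHLHE40 (chr3:5020801-5027008), a basic helix-loop-helix repressor that HIF and other stress signals induce, had 27.1, 29.5 and 27.6 CPM in knockout cells labelled prexasertib and 11.4, 11.19 and 11.6 CPM in those labelled DMSO. This was the change with the smallest adjusted p among the members in knockout cells (2.05e-13 by edgeR), at 1.30 on the log2 scale (SE 0.07).

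MIR210HG had 5.63, 5.36 and 5.33 CPM in knockout cells labelled prexasertib, against 2.98, 3.505 and 3.16 CPM in knockout cells labelled DMSO, a log2 fold change of 0.76 (SE 0.12). ANKRD37 (chr4:186317175-186321782), an ankyrin repeat protein and a sensitive HIF target, had 17.5, 18.5 and 18.8 CPM, against 10.9, 10.18 and 10.4 CPM. It rose by 0.80 on the log2 scale (SE 0.07), and only 48.3% of its exonic reads lie outside other genes, on which the call was kept. The oxygen-sensing hydroxylase EGLN1, itself a HIF target, rose by 0.43 (SE 0.06), while EGLN3, its little-read relative, was not called. HIF1A had 134, 138 and 144 CPM in knockout cells labelled prexasertib, against 126, 122 and 124 CPM in those labelled DMSO. Its small increase of 0.16 (SE 0.05, edgeR adjusted p = 0.0314) was not called on the 34.9% of its reads that lie outside other genes, where it was 0.07, and it was lost without any 1 of 7 libraries (0.14 to 0.18).

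Among genes of glucose uptake and upper glycolysis, SLC2A1 had 62.6, 63.5 and 60.4 CPM in knockout cells labelled prexasertib and 36.1, 38.9 and 40.4 CPM in those labelled DMSO. Its log2 fold change was 0.69 (SE 0.06). SLC2A3, a high-affinity glucose transporter of lymphoid cells and neurons, had 37.9, 35.991 and 38.0 CPM, against 26.3, 26.4 and 24.9 CPM, and rose by 0.53 (SE 0.06). Both transporters had all labelled prexasertib libraries above all labelled DMSO libraries. HK2, the inducible hexokinase that traps glucose in the cell, had 40.2, 38.7 and 38.7 CPM, against 26.2, 27.7 and 26.1 CPM, and rose by 0.56 (SE 0.08), whereas HK1, the constitutive hexokinase, was at −0.07 (SE 0.05) and was not called. PFKFB3 makes fructose 2,6-bisphosphate, the activator of phosphofructokinase. It had 25.1, 28.1 and 25.3 CPM in knockout cells labelled prexasertib, against 22.3, 21.1 and 18.7 CPM in those labelled DMSO, and rose by 0.34 (SE 0.07). PFKFB4, its relative with the same double activity, had 4.86, 5.36 and 4.24 CPM, against 7.54, 7.04 and 7.88 CPM, and fell, with a log2 fold change of −0.63 (SE 0.10).

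The other members that fell in knockout cells were BNIP3, BNIP3L, NDRG1, CA9, GPI and PFKL. BNIP3 (chr10:133781578-133795435) sits in the outer mitochondrial membrane and recruits the machinery that removes mitochondria. Its exonic level was 14.8, 14.6 and 14.3 CPM in knockout cells labelled prexasertib, against 21.6, 22.8 and 22.2 CPM in those labelled DMSO, with no overlap and a log2 fold change of −0.61 (SE 0.06, edgeR adjusted p = 1.58e-07). BNIP3L, the paralog with the same task, was at −0.21 (SE 0.05) and NDRG1, a stress-responsive protein of membrane traffic, at −0.20 (SE 0.05). CA9, the cell-surface carbonic anhydrase that acidifies the surroundings of hypoxic cells, had 6.09, 5.18 and 4.77 CPM, against 7.03, 7.02 and 6.46 CPM, and a log2 fold change of −0.36 (SE 0.10). GPI, the isomerase of glucose 6-phosphate, had 503, 514 and 486 CPM, against 548, 559 and 562 CPM, at −0.15 (SE 0.05, edgeR adjusted p = 0.0444). Outside other genes lie 55.7% of the exonic reads of GPI and 74.2% of those of CA9. PFKL, the liver-type phosphofructokinase, had 83.9, 89.2 and 73.7 CPM, against 93.0, 95.8 and 98.1 CPM, at −0.22 (SE 0.07). The count of 7 lower members fell to 4 without replicate 1, 2 or 3 of the knockout cells labelled DMSO or without replicate 1 of those labelled prexasertib, and to 3 without replicate 3 of those labelled prexasertib: the calls of BNIP3, BNIP3L and PFKFB4 held without any 1 of the 12 libraries, while that of NDRG1 was lost without any 1 of 3 of them (−0.19 to −0.17), of CA9 without any 1 of 4 (−0.33 to −0.28), of PFKL without any 1 of 6 (−0.24 to −0.14) and of GPI without any 1 of 9 (−0.17 to −0.12). Without replicate 1 of the parent cells labelled prexasertib, whose libraries share the estimate of spread, 9 were lower, PGK1 and ENO1 being added.

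**Figure D1:**
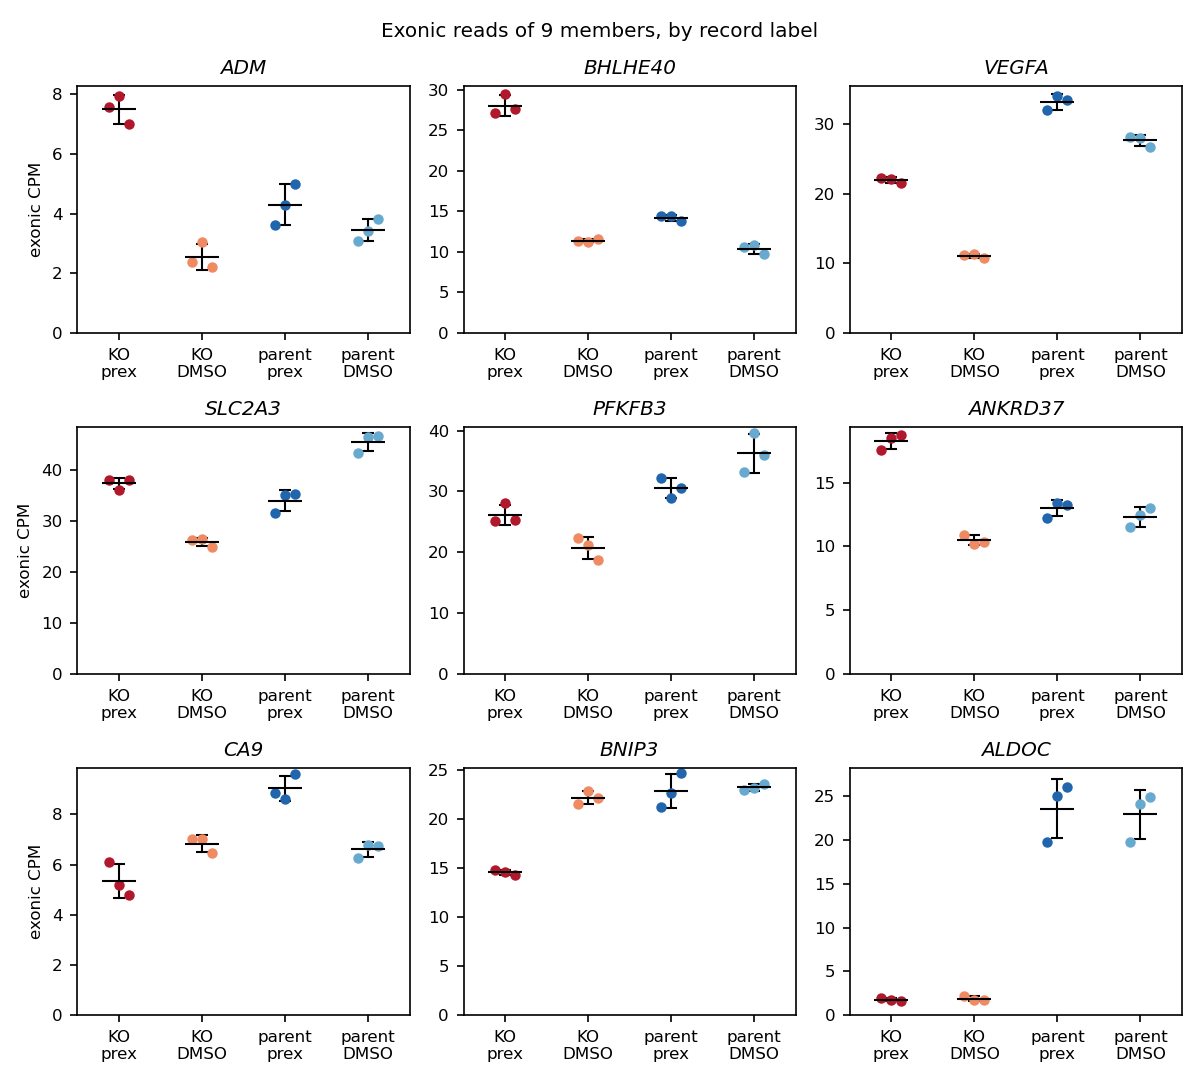
Exonic levels of 9 members in CPM, with 1 point per library and the mean and SD of the 3 libraries of a group as bars; KO stands for SLFN11 knockout and prex for labelled prexasertib. ADM, BHLHE40, VEGFA, SLC2A3 and ANKRD37 are higher in knockout cells labelled prexasertib than in those labelled DMSO with no overlap, BNIP3 is lower, and ALDOC sits at 1.66 to 2.19 CPM in knockout cells against 19.8 to 26.1 CPM in parent cells.

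In parent cells, labelled prexasertib against labelled DMSO moved 22 members in exonic reads, 18 higher and 4 lower. The higher ones held 11 glycolytic enzymes, most of them by small amounts, and the lower ones were PFKFB3, PFKFB4, SLC2A3 and KDM3A. All genes gave 18.2% called higher and 18.2% called lower. The members' median log2 fold change was 0.17, against 0.04 for all genes, and the groups did not overlap in 20 of the 36 members, against 43.3% of all genes.

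MIR210HG had the largest change of the called members in parent cells. It had 4.66, 4.07 and 4.22 CPM in parent cells labelled prexasertib, against 2.15, 1.90 and 2.16 CPM in those labelled DMSO, at 1.06 on the log2 scale (SE 0.13, edgeR adjusted p = 1.6e-07). HK2 followed with 47.8, 35.1 and 36.004 CPM, against 25.5, 25.5 and 25.3 CPM, where the first value belongs to the library that stands apart. The fold change of HK2 was 0.64 (SE 0.08), and it was 0.46 without that library. SLC2A1 had 43.9, 41.1 and 44.0 CPM in parent cells labelled prexasertib, against 29.0, 32.0 and 29.5 CPM in those labelled DMSO, and rose by 0.51 (SE 0.06). BHLHE40 had 14.4, 14.5 and 13.8 CPM, against 10.6, 10.8 and 9.71 CPM, and rose by 0.45 (SE 0.07). CA9 had 8.87, 8.63 and 9.61 CPM, against 6.27, 6.80 and 6.76 CPM, and rose by 0.45 (SE 0.10). VEGFA had 32.0, 34.1 and 33.5 CPM, against 28.2, 28.1 and 26.8 CPM, and rose by 0.26 (SE 0.06). In each of these 6 genes the libraries of the groups were apart.

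Of the glycolytic enzymes, PGAM1 (phosphoglycerate mutase) was the most changed after HK2, at 0.41 (SE 0.05), followed by HK1 at 0.35 and PGK1 at 0.29. PFKL had 97.4, 107 and 111 CPM in parent cells labelled prexasertib, against 79.8, 93.6 and 85.7 CPM in those labelled DMSO, at 0.29 (SE 0.07). LDHA had 1219, 1249 and 1224 CPM, against 1059.7, 1060.0 and 1060.1 CPM, at 0.22 (SE 0.05). GPI had 755, 742 and 769 CPM, against 639, 699 and 649 CPM, at 0.19 (SE 0.05). TPI1, ALDOA, ENO1 and the neuronal enolase ENO2 rose by 0.20 to 0.25 on the log2 scale. The calls of GPI (0.13) and ENO2 (0.16) were lost without replicate 1 of the parent cells labelled DMSO. ENO1 had 4209.5, 4923 and 5085 CPM, against 3922, 4229 and 4238 CPM, so that the groups overlapped, and its call was lost without any 1 of 3 libraries (0.12 to 0.17), namely replicate 1 of the parent cells labelled DMSO and replicates 2 and 3 of those labelled prexasertib. GAPDH had 4942, 5749 and 5889.5 CPM, against 4922, 5352 and 5294 CPM, and was not called (0.09, SE 0.06). Without the library that stands apart, GAPDH was called higher at 0.14, and so were PKM, the pyruvate kinase, at 0.24 and ADM at 0.41, while the call of PFKFB4 was lost. GAPDH, ENO1, PGK1, LDHA, TPI1, ALDOA, PGAM1 and PKM have near-identical copies elsewhere in the genome, among which reads may be split, so their values are uncertain to that extent.

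SLC2A3 had 31.5, 35.0 and 35.3 CPM in parent cells labelled prexasertib, against 43.3, 46.4 and 46.5 CPM in those labelled DMSO. It fell without overlap, with a log2 fold change of −0.42 (SE 0.06). PFKFB3 had 32.3, 28.9 and 30.5 CPM, against 33.1, 39.5 and 36.034 CPM, at −0.25 (SE 0.07), a call lost without replicate 2 of the parent cells labelled prexasertib (−0.21); with all reads of the gene counted together it was at 0.025 and not called. PFKFB4 had 6.73, 7.69 and 7.63 CPM, against 8.37, 9.05 and 8.98 CPM, at −0.26 (SE 0.10, edgeR adjusted p = 0.045). KDM3A, a histone demethylase that HIF induces, was at −0.34 (SE 0.12, edgeR adjusted p = 0.0429) with overlapping groups, since replicate 1 of the parent cells labelled prexasertib, at 56.8 CPM, lay with the libraries labelled DMSO. Without that library KDM3A was at −0.56 and still called, whereas the call was lost without any 1 of 9 others (−0.41 to −0.25). The PFKFB4 call was lost without any 1 of 6 libraries (−0.29 to −0.22), and with 2 lower members left the count of 4 did not hold without replicate 2 or 3 of the parent cells labelled DMSO or replicate 2 or 3 of those labelled prexasertib. BNIP3L, called higher at 0.15, lost that call without any 1 of 6 libraries (0.08 to 0.15). ADM (0.32), ANKRD37 (0.08), BNIP3 (−0.02), NDRG1 (−0.06) and HIF1A (−0.07), all called in knockout cells, were not called in parent cells; HIF1A was called lower, at −0.14, on reads outside other genes. The 9 members called in neither line on exonic reads were PDK1, EGLN3, PFKP (platelet-type phosphofructokinase), ALDOC, GAPDH, PKM, P4HA1, P4HA2 and MXI1.

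**Figure D2:**
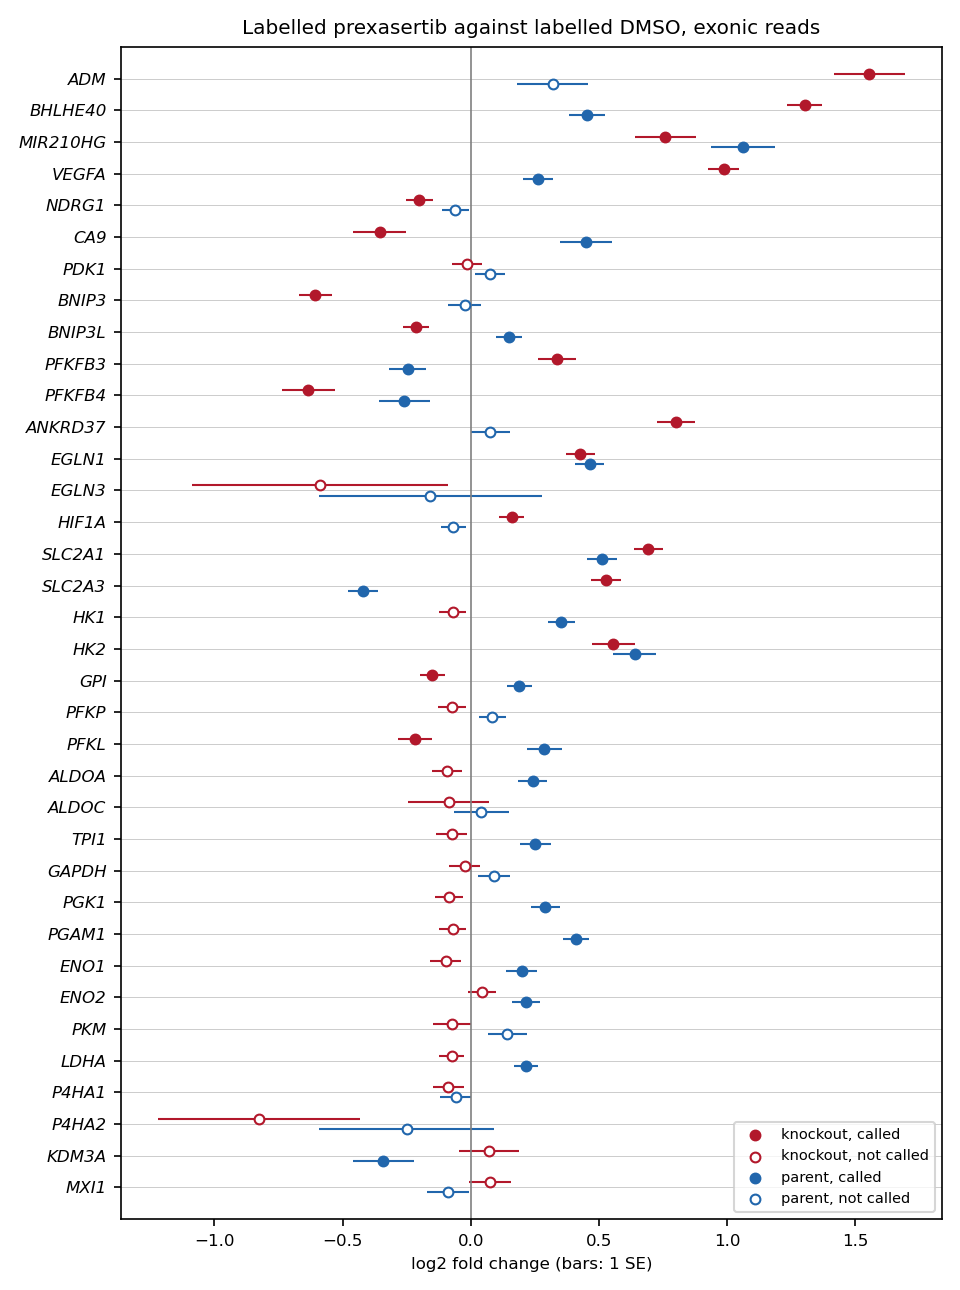
Log2 fold change of exonic reads, labelled prexasertib over labelled DMSO, for the 36 members in knockout cells (red) and parent cells (blue); bars are 1 SE and filled points are called at an edgeR adjusted p of at most 0.05. In knockout cells ADM at 1.56 and BHLHE40 at 1.30 are farthest right, and from HK1 down to LDHA the parent values lie right of the knockout values for most enzymes.

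The difference between the lines in the treatment effect was tested as an interaction, the log2 fold change in knockout cells less that in parent cells, so that a positive value means a more positive response in knockout cells. It was called in 19 members, 7 positive and 12 negative, while 9.53% of all genes were called positive and 7.32% negative; with all reads of a gene counted together, 5 were negative. The members' median was −0.16, against −0.03 over all genes. The 7 positive members were ADM, SLC2A3, BHLHE40, VEGFA, ANKRD37, PFKFB3 and HIF1A. ADM led at 1.24 (SE 0.19, edgeR adjusted p = 5.13e-05), with 4.30 ± 0.695 CPM in parent cells labelled prexasertib and 3.45 ± 0.373 CPM in those labelled DMSO (SD, n = 3 each). SLC2A3 had the interaction with the smallest adjusted p, at 0.95 (SE 0.08, edgeR adjusted p = 5.45e-09), and it and PFKFB3 (0.58) rose in knockout cells and fell in parent cells. The 12 negative members were CA9 at −0.81 (SE 0.14), BNIP3 at −0.58 (SE 0.09), BNIP3L and 9 glycolytic enzymes, HK1, GPI, PFKL, ALDOA, TPI1, PGK1, PGAM1, ENO1 and LDHA, whose values ran from −0.50 for PFKL to −0.29 for LDHA. CA9, BNIP3L, GPI and PFKL fell in knockout cells and rose in parent cells. Of the members higher in knockout cells, 6 were also higher in parent cells, namely BHLHE40, MIR210HG, VEGFA, EGLN1, SLC2A1 and HK2, and for MIR210HG, EGLN1, SLC2A1 and HK2 the interaction was not called, with values of −0.30, −0.04, 0.18 and −0.08. Without the library that stands apart the 19 calls were kept and 6 were added: positive for SLC2A1 and KDM3A, negative for PFKFB4, PFKP, GAPDH and PKM. The ENO1 interaction was lost without any 1 of 7 other libraries (−0.31 to −0.22) and that of HIF1A without replicate 3 of either group labelled DMSO (0.23 in both cases).

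Intronic reads, which come mostly from RNA not yet spliced, gave another picture of the same members. In knockout cells, 20 of the 35 members tested were higher under labelled prexasertib and 0 were lower, and in parent cells 22 were higher and 0 lower. Over all 19852 genes tested on intronic reads, 5.83% were called higher and 6.15% lower in knockout cells and 30.8% were called in parent cells (3021 higher and 3101 lower). The groups did not overlap in 24 members in knockout cells, against 37.2% of all genes, and in 23 members in parent cells, against 39.2%. At an unadjusted p under 0.05, 0 members were lower in knockout cells and 1 in parent cells, and DESeq2 called 0 lower in both. The median intronic log2 fold change of the members was 0.44 in knockout cells, against 0.01 for all genes, and 0.31 in parent cells, against −0.01 for all genes. With any 1 library left out, 19 to 23 members were called higher in knockout cells and 19 to 24 in parent cells, and 0 lower in either. The reads used to pick the members included these, so the counts remain a description.

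The 18 members with higher intronic reads in both lines were BHLHE40, ANKRD37, EGLN1, NDRG1, BNIP3, BNIP3L, KDM3A, the collagen prolyl hydroxylase P4HA1, PDK1, which blocks the entry of pyruvate into mitochondria, PFKFB3, SLC2A1 and the glycolytic enzymes HK1, HK2, GPI, PGK1, PGAM1, ENO1 and LDHA. BNIP3 had 55.4, 60.4 and 64.7 intronic CPM in knockout cells labelled prexasertib, against 27.5, 28.2 and 28.8 in those labelled DMSO. In parent cells its intronic level was 46.6, 45.0 and 44.0 CPM under labelled prexasertib, against 22.4, 27.7 and 25.3 CPM under labelled DMSO. The groups were far apart in both lines, with log2 fold changes of 1.09 (SE 0.09) and 0.85 (SE 0.09). ENO1 (chr1:8921061-8939308) had 248, 257 and 259 intronic CPM in knockout cells labelled prexasertib, against 142, 141 and 145 in those labelled DMSO. The parent cells had 196, 229 and 224 under labelled prexasertib, against 146, 160.3 and 154 under labelled DMSO. Its intronic changes were 0.84 (SE 0.07) in knockout cells and 0.49 (SE 0.07) in parent cells. GPI had 124, 129 and 120.0 intronic CPM in knockout cells labelled prexasertib, against 74.7, 72.0 and 70.3 in those labelled DMSO, and 135, 111 and 111 in parent cells labelled prexasertib, against 66.9, 72.8 and 69.3 in those labelled DMSO. It rose in both lines, by 0.78 (SE 0.08) and 0.77 (SE 0.08).

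LDHA had 81.2, 80.3 and 77.4 intronic CPM in knockout cells labelled prexasertib, against 48.8, 47.4 and 53.7 in those labelled DMSO, and rose by 0.67 (SE 0.07). For parent cells the LDHA values were 57.8, 60.2 and 61.8 under labelled prexasertib, against 42.0, 38.9 and 37.6 under labelled DMSO, an increase of 0.60 (SE 0.08). The groups did not overlap in either line. HK2 rose by 0.76 in knockout cells and 0.89 in parent cells, SLC2A1 by 0.59 and 0.91, PGK1 by 0.55 and 0.55, and PDK1 by 0.44 and 0.56, each in that order of lines. ANKRD37 had 27.6, 26.5 and 29.8 intronic CPM in knockout cells labelled prexasertib, against 12.4, 13.04 and 14.25 in those labelled DMSO, at 1.08 (SE 0.12). MIR210HG, at 1.70, and PFKFB4, at 0.81, were called in knockout cells alone, and VEGFA (0.56), EGLN3 (0.22), PFKP (0.27) and PFKL (0.57) in parent cells alone. Of these 6, the intronic interaction was called for PFKFB4 alone. The MIR210HG value rests on few intronic reads: 32, 47 and 30 in knockout cells labelled prexasertib, against 18, 12 and 10 in those labelled DMSO. Only 12.15% of the intronic reads of EGLN3 lie outside other genes, so its intronic values cannot be assigned to EGLN3 alone. The 11 members called in neither line were CA9, HIF1A, SLC2A3, ALDOA, ALDOC, TPI1, GAPDH, ENO2, PKM, P4HA2 and MXI1, a MYC antagonist. HIF1A was at −0.02 in knockout cells and 0.02 in parent cells (SE 0.07 and 0.07). Across the members the intronic interaction was called positive for PFKFB4 (0.57), ANKRD37 (0.57), SLC2A3 (0.41) and ENO1 (0.35) and negative for HK1 (−0.36), while 9.84% of all genes were called (1155 positive and 798 negative), but with 1 library left out the positive count ranged from 0 to 6, each of these calls being lost without any 1 of 5 to 8 libraries. The HK1 call in knockout cells was lost without any 1 of 8 libraries (0.20 to 0.25), and in parent cells the VEGFA call without any 1 of 3 (0.35 to 0.63), the BHLHE40 call without any 1 of 2 (0.46 to 0.53) and the EGLN3 call without replicate 3 of those labelled prexasertib (0.20). Without the library that stands apart, GAPDH was also called higher on intronic reads in both lines, at 0.32 and 0.37, as were SLC2A3 and PFKP in knockout cells, at 0.22 and 0.13, and PKM in parent cells, at 0.19. The intronic interaction was then also called positive for NDRG1 (0.34) and PFKFB3 (0.31) and negative for PFKL (−0.54).

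**Figure D3:**
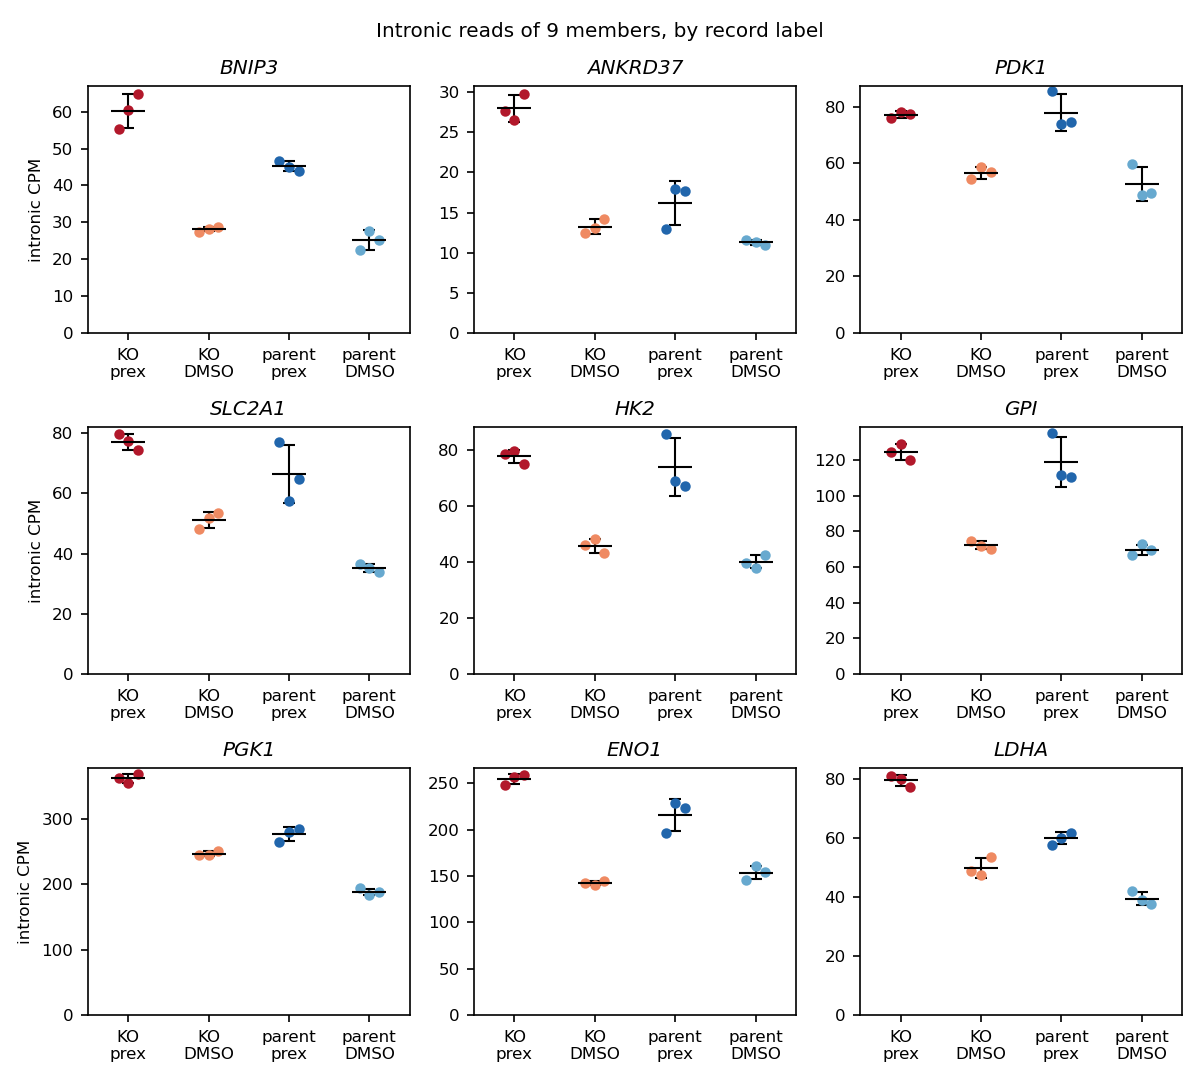
Intronic levels of 9 members in CPM of intronic reads, with 1 point per library and the mean and SD of 3 libraries as bars; KO stands for SLFN11 knockout and prex for labelled prexasertib. All 9 are called higher under labelled prexasertib in both lines, with BNIP3 at 55.4 to 64.7 CPM in knockout cells labelled prexasertib against 27.5 to 28.8 CPM in those labelled DMSO.

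Exonic and intronic reads of several members went opposite ways. In knockout cells 5 members fell in exonic reads and rose in intronic reads: BNIP3, BNIP3L, NDRG1, PFKFB4 and GPI. Of the 17090 genes tested on both kinds of read, 12 did so in knockout cells (0.0702%), these 5 among them. In parent cells PFKFB3 and KDM3A did so, as did 138 of the 17090 genes (0.807%). The reverse, higher exonic and lower intronic reads, was seen in 0 members in both lines and in 0.0468% of all genes in knockout cells and 0.369% in parent cells. Higher in both kinds of read were 7 members in knockout cells (2.38% of the genes) and 13 in parent cells (9.87%). Intronic reads were higher with no exonic call in 8 members in knockout cells (4.12% of the genes), PDK1, HK1, PGK1, PGAM1, ENO1, LDHA, P4HA1 and KDM3A, and in 7 in parent cells (6.57%), NDRG1, PDK1, BNIP3, ANKRD37, EGLN3, PFKP and P4HA1. EGLN3 counts here on intronic reads of which only 12.15% lie outside other genes. Of the 35 members, 29 had an intronic log2 fold change above the exonic one in knockout cells and 27 in parent cells, against 52.7% and 49.7% of the genes tested on both. No test of the exonic against the intronic change of a gene was made. Both kinds of read were known when the members were picked, so nothing is read from the members' place in these shares.

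In BNIP3, intronic reads made up 56.6, 58.3 and 61.1% of the gene's reads in knockout cells labelled prexasertib, against 30.9, 30.4 and 30.5% in those labelled DMSO. Parent cells gave 48.4, 41.3 and 38.5% under labelled prexasertib, against 25.2, 27.4 and 25.4% under labelled DMSO. The share was thus higher under labelled prexasertib in every library of both lines. PFKFB4 had 69.7, 68.1 and 70.2% intronic reads in knockout cells labelled prexasertib, against 45.8, 48.1 and 42.3% in those labelled DMSO. Its exonic fold change in knockout cells was −0.63 and its intronic one 0.81 (SE 0.12). For GPI the intronic share was 7.90, 7.84 and 7.90% in knockout cells labelled prexasertib, against 4.56, 4.35 and 4.05% in those labelled DMSO. When all reads of a gene were counted together, the knockout fold change was positive for BNIP3 (0.10), NDRG1 (0.094) and PFKFB4 (0.18) and was not called, so the lower exonic calls hold for exonic reads alone. In parent cells the same count put PFKFB3 at 0.025, not called. Where the exonic call of GPI or NDRG1 in knockout cells, or of PFKFB3 or KDM3A in parent cells, was lost without 1 library, as given above, that gene no longer met this description. NDRG1 was at −0.20 in exonic reads and 0.64 (SE 0.08) in intronic reads, and BNIP3L at −0.21 and 0.44 (SE 0.08). In parent cells PFKFB3 had exonic and intronic fold changes of −0.25 and 0.31 (SE 0.08), and KDM3A of −0.34 and 0.31 (SE 0.08). The share of intronic reads over all genes was 25.4 to 26.0% in knockout cells labelled prexasertib and 25.0 to 25.8% in those labelled DMSO, 25.9 to 30.3% in parent cells labelled prexasertib and 23.9 to 25.6% in those labelled DMSO. Its part in the members' values was not tested, although both kinds of read were scaled to their own totals. ADM has no introns in the files, and BHLHE40 rose in both kinds of read, at 1.30 and 1.12 in knockout cells and 0.45 and 0.59 in parent cells.

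**Figure D4:**
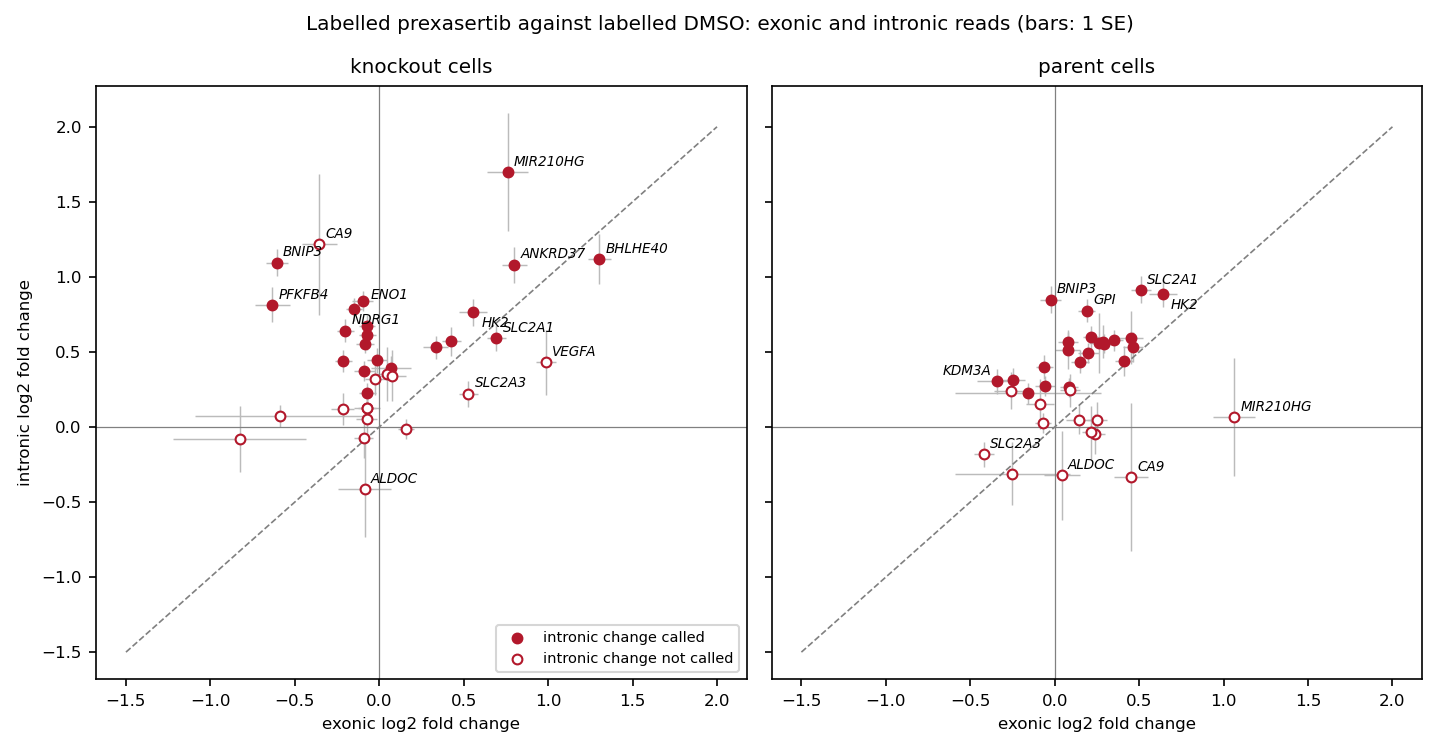
Exonic (x axis) and intronic (y axis) log2 fold changes of 35 members, labelled prexasertib over labelled DMSO, in knockout cells (left) and parent cells (right); bars are 1 SE, filled points are called on intronic reads and the dashed line marks equal values. Filled points lie above 0 on the intronic axis in both panels, and in knockout cells BNIP3 (−0.61 exonic, 1.09 intronic), PFKFB4 and NDRG1 lie to the upper left.

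Knockout against parent cells under labelled prexasertib called 23 members in exonic reads, 7 higher and 16 lower, and under labelled DMSO 21 members, 9 higher and 12 lower. In all genes 14.5% were called higher and 13.5% lower under labelled prexasertib, and 19.6% higher and 20.4% lower under labelled DMSO. The members' median was −0.14 under labelled prexasertib, against −0.02 for all genes, and 0.04 under labelled DMSO, against −0.01. The groups did not overlap in 24 members under labelled prexasertib, against 38.1% of all genes, and in 30 under labelled DMSO, against 53.6%. These comparisons share libraries with the treatment comparisons, so they are not separate evidence. On the TPM scale the balance turned, with 11 higher and 10 lower under labelled prexasertib and 21 higher and 5 lower under labelled DMSO. Calls over all 23045 genes shifted to higher there too, so the turn is not particular to the members. With a pseudocount of 1, all genes gave 6358 higher and 1327 lower under labelled prexasertib, and 9197 and 1833 under labelled DMSO. Without replicate 1 of the parent cells labelled prexasertib, 9 members were higher and 19 lower under labelled prexasertib, where HK2 and KDM3A were added as higher and PFKP, GAPDH, PGAM1 and PKM as lower and PFKFB3 was lost; under labelled DMSO, TPI1 was then added as higher and PFKFB4 and P4HA2 as lower, and EGLN1 (0.15) was lost at 0.12. The EGLN1 call was lost without any 1 of 9 libraries in all (0.09 to 0.16). Also under labelled DMSO, the KDM3A call was lost without any 1 of 8 (−0.40 to −0.32) and the MXI1 call without any 1 of 7 (−0.21 to −0.17). Without replicate 3 of the parent cells labelled DMSO, 7 were lower under labelled DMSO.

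ALDOC, the brain-type aldolase (chr17:26900133-26904282), differed most. Its exonic level was 1.96, 1.67 and 1.66 CPM in knockout cells labelled prexasertib and 2.19, 1.69 and 1.69 CPM in those labelled DMSO, against 19.8, 25.0 and 26.1 CPM in parent cells labelled prexasertib and 19.8, 24.1 and 24.9 CPM in those labelled DMSO. The log2 fold change, knockout over parent, was −3.74 (SE 0.13) under labelled prexasertib and −3.61 (SE 0.13) under labelled DMSO, and labelled prexasertib changed it in neither line. All of its exonic reads lie in regions shared with another gene, so these reads cannot be assigned to ALDOC alone. VEGFA was lower in knockout cells under both treatments, at −0.59 (SE 0.06) under labelled prexasertib and −1.32 (SE 0.06) under labelled DMSO, and its intronic reads were lower as well, at −0.91 and −0.78, the second call being lost without replicate 1 of the knockout cells labelled DMSO (−0.65). P4HA1, a prolyl hydroxylase of collagen, had 34.0, 34.3 and 36.1 CPM in knockout cells labelled prexasertib, against 52.9, 63.3 and 58.2 CPM in parent cells labelled prexasertib. Under labelled DMSO it had 38.1, 36.037 and 36.8 CPM in knockout cells, against 63.9, 57.9 and 59.9 CPM in parent cells, with fold changes of −0.74 and −0.71 (SE 0.06 and 0.06). Its intronic reads were not called, at 0.04 and −0.06. P4HA2, with at most 0.708 CPM in any library, was called lower under labelled prexasertib (−1.39, SE 0.39), with 0.245, 0.226 and 0.111 CPM in knockout cells against 0.599, 0.568 and 0.360 CPM in parent cells; the call was lost without replicate 3 of the knockout cells labelled prexasertib, at −1.12.

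SLC2A1 was higher in knockout cells under both treatments, by 0.53 (SE 0.06) under labelled prexasertib and 0.35 (SE 0.06) under labelled DMSO. MIR210HG was too, by 0.33 and 0.63, and NDRG1 by 0.22 and 0.36; the MIR210HG call under labelled prexasertib was lost without any 1 of 5 libraries (0.29 to 0.34). For BHLHE40 the lines differed under labelled prexasertib, by 0.98 (SE 0.07), and were not called apart under labelled DMSO, at 0.13 (SE 0.07). ADM and ANKRD37 were among the members that changed side, and PGK1 did so the other way, as given below. BNIP3L was lower under labelled prexasertib, a call lost without any 1 of 7 libraries (−0.15 to −0.13), and its interaction was −0.36. ADM was higher in knockout cells under labelled prexasertib, by 0.81 (SE 0.13), and lower under labelled DMSO, at −0.43 (SE 0.14). ANKRD37 was at 0.49 and −0.23. The ADM call under labelled DMSO was lost without any 1 of 3 libraries (−0.40 to −0.35) and that of ANKRD37 without replicate 3 of either group labelled DMSO (−0.22 and −0.19). SLC2A3 and PFKFB3 were lower in knockout cells under labelled DMSO, at −0.81 and −0.80; under labelled prexasertib PFKFB3 was at −0.22, a call lost without any 1 of 4 libraries (−0.22 to −0.18), and SLC2A3 was not called (0.14). BNIP3, PFKFB4 and CA9 were lower in knockout cells under labelled prexasertib, at −0.65, −0.61 and −0.75, and not called under labelled DMSO, at −0.07, −0.23 and 0.05; with all reads of the gene counted together, PFKFB4 under labelled prexasertib was at 0.20 and not called.

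Among the enzymes, GPI and ENO1 were lower in knockout cells under both treatments, at −0.59 and −0.50 under labelled prexasertib and −0.25 and −0.21 under labelled DMSO. ENO1 had 3387, 3393 and 3251 exonic CPM in knockout cells labelled prexasertib, against 4209.5, 4923 and 5085 CPM in parent cells labelled prexasertib. HK1, PGAM1, LDHA and PGK1 were higher in knockout cells under labelled DMSO, by 0.50, 0.42, 0.29 and 0.17. Under labelled prexasertib, by contrast, PGK1 was called lower in knockout cells, as was TPI1. There the PGK1 call was lost without 1 library (−0.16) and the TPI1 call without any 1 of 2 (−0.18 to −0.15). Under labelled DMSO the PGK1 call was lost without any 1 of 3 libraries (0.14 to 0.17), and the ENO1 call without replicate 3 of the parent cells (−0.19). LDHA had 1306, 1300.3 and 1282 CPM in knockout cells labelled DMSO, against 1059.7, 1060.0 and 1060.1 CPM in parent cells labelled DMSO, with no overlap, while under labelled prexasertib it was at 0.00 (SE 0.05). GAPDH had 5228, 5299 and 5045 CPM in knockout cells labelled prexasertib and 5239, 5253 and 5331 CPM in those labelled DMSO. With all 12 libraries it was not called by edgeR in any of the 5 contrasts. On the TPM scale, where the median of all genes moved to 0.15 with a pseudocount of 1 under labelled DMSO, ANKRD37, ENO1, GPI, MXI1 and PDK1 turned to small positive values of at most 0.07 under labelled DMSO, below that median, so their lower exonic values there hold for CPM. On intronic reads 11 members were higher and 1 lower in knockout cells under labelled prexasertib (18.8% of all genes were called, 1910 higher and 1818 lower), and 10 higher and 3 lower under labelled DMSO (30.3% of all genes, 2820 higher and 3186 lower). The intronic groups did not overlap in 18 members under labelled prexasertib, against 33.0% of all genes, and in 21 under labelled DMSO, against 47.5%. PGK1, LDHA, NDRG1 and BNIP3L were higher in intronic reads under both treatments, BNIP3L by a call lost without any 1 of 3 libraries under labelled prexasertib and of 2 under labelled DMSO. The 11 higher members under labelled prexasertib ranged from 7, without replicate 3 of the knockout cells labelled prexasertib, to 16, without replicate 1 of the parent cells labelled prexasertib, where EGLN1, SLC2A1, HK1, HK2 and GPI were added, along with ALDOA and PKM as lower. Under labelled DMSO, leaving out that library added HK2, PGAM1 and KDM3A as higher and ENO2 as lower.

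**Figure D5:**
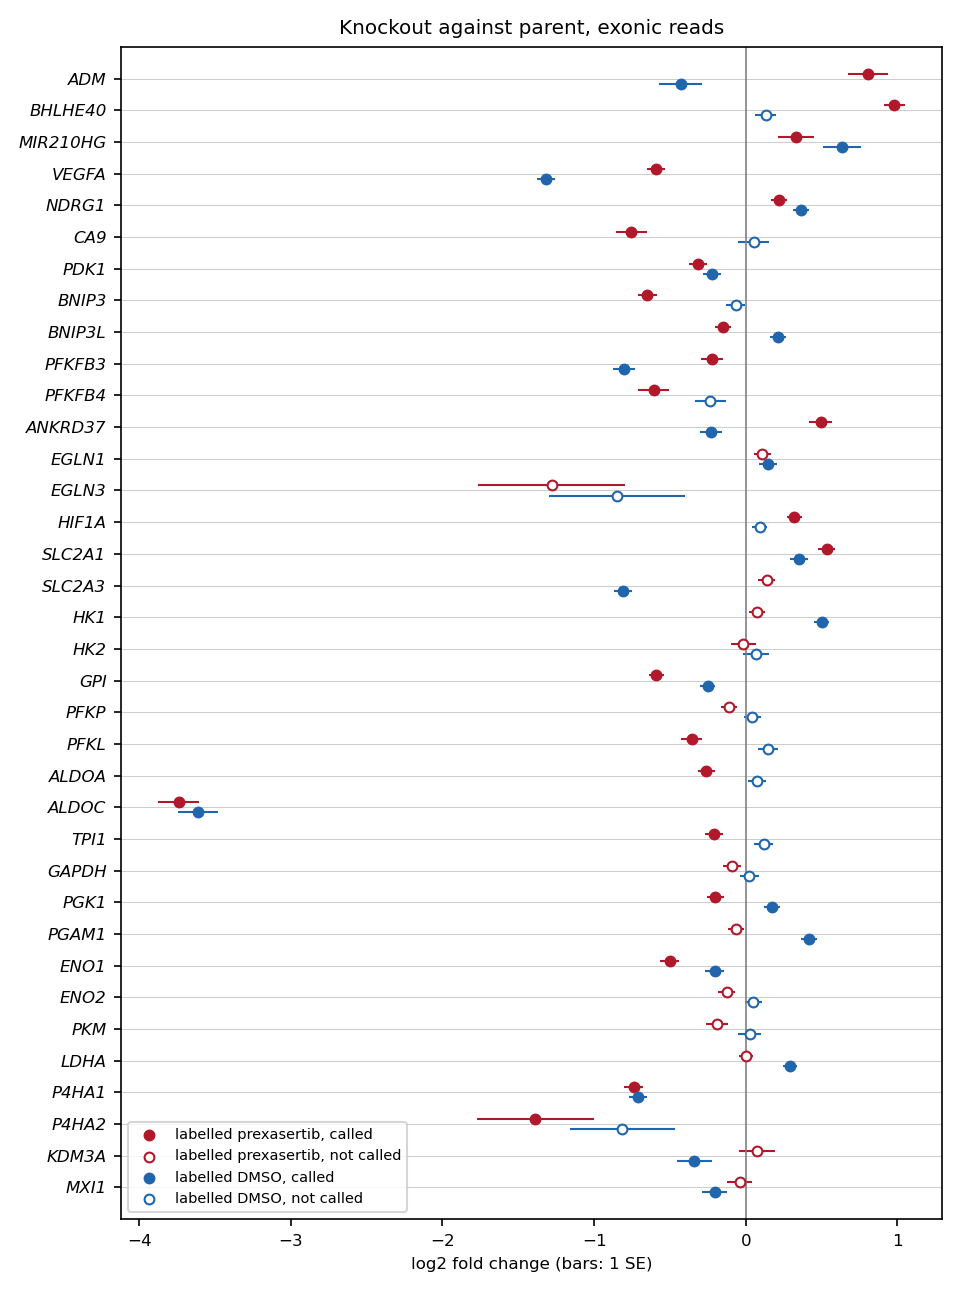
Log2 fold change of exonic reads, knockout over parent, for the 36 members under labelled prexasertib (red) and labelled DMSO (blue); bars are 1 SE and filled points are called at an edgeR adjusted p of at most 0.05. ALDOC lies at −3.74 and −3.61, VEGFA and P4HA1 are lower under both treatments, and ADM and ANKRD37 lie right of 0 under labelled prexasertib and left of it under labelled DMSO.

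Other genes of the same pathways, from lists drawn up from general knowledge but with earlier results of these data known, were set beside the members. For reading the exonic counts, the shares of all genes called higher and lower were 6.11 and 6.83% in knockout cells, 18.2 and 18.2% in parent cells, and 19.6 and 20.4% between the lines under labelled DMSO. Of 12 tested regulators of HIF, 2 were higher and 0 lower in knockout cells under labelled prexasertib, with 0 at an unadjusted p under 0.05 and 0 by DESeq2 in the lower direction. LIMD1, a scaffold that helps the degradation of the alpha subunit, rose by 0.28 (SE 0.07) and SIAH2, a ubiquitin ligase that acts on EGLN proteins, by 0.27 (SE 0.05). In parent cells 4 were higher and 0 lower, with LIMD1 at 0.55 and HIF1AN, the hydroxylase that silences HIF, at 0.36; 1 was lower at an unadjusted p under 0.05 and 0 by DESeq2. Knockout against parent cells under labelled DMSO gave 5 higher and 0 lower, among them RBX1, part of the ligase that destroys the alpha subunit, at 0.52 and ARNT at 0.29; here too 1 was lower at an unadjusted p under 0.05 and 0 by DESeq2. Of 30 other HIF targets tested, 5 were higher and 6 lower in knockout cells, where PLOD1, a lysyl hydroxylase of collagen, was at −0.76 and WSB1 at −0.47. In parent cells 10 were higher and 5 lower, with the chemokine receptor gene CXCR4 at −0.64 and WSB1 at −0.62. Between the lines under labelled DMSO 5 were higher and 9 lower, and the transferrin receptor gene TFRC was at 0.62 and RIMKLA at 1.27.

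Of 13 other glycolysis genes tested, 0 were called in knockout cells, with 0 higher and 2 lower at an unadjusted p under 0.05 and 0 called by DESeq2; the muscle-type mutase PGAM2 was at −0.51 and PFKFB2 at −0.19. Parent cells gave 4 higher and 1 lower, PGM1 at 0.31 and PFKFB2 at −0.52. Between the lines under labelled DMSO 5 were higher and 1 lower, with SLC2A4, the insulin-responsive glucose transporter, at 1.70 and the hexokinase gene HKDC1 at 0.61. Of 12 genes of pyruvate dehydrogenase and its regulators, 0 were called in knockout cells (1 higher and 1 lower at an unadjusted p under 0.05, 0 by DESeq2), with PDP1, its phosphatase, at −0.15 and its subunit gene DLAT at 0.11. In parent cells 4 were higher and 0 lower (0 lower at an unadjusted p under 0.05 and by DESeq2), with the kinase gene PDK3 at 0.73 and the subunit gene PDHB at 0.24. Knockout against parent cells under labelled DMSO gave 6 higher and 0 lower (0 lower at an unadjusted p under 0.05 and by DESeq2), with MPC1, part of the mitochondrial pyruvate carrier, at 0.61 and PDHB at 0.40. On intronic reads, the other HIF targets gave 7 higher and 5 lower of 32 in knockout cells under labelled prexasertib and 10 higher and 6 lower in parent cells, the HIF regulators 2 higher and 2 lower of 12 in knockout cells and 1 higher and 0 lower in parent cells, and the other glycolysis genes 1 higher and 2 lower of 15 in knockout cells and 3 higher and 1 lower in parent cells. Over all genes, 5.83% were called higher and 6.15% lower on intronic reads in knockout cells, and 30.8% in either direction in parent cells. The median intronic log2 fold change of the other HIF targets was 0.04 in knockout cells and 0.22 in parent cells, and that of the other glycolysis genes 0.03 and 0.05. The difference between these lists and the members was not tested.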

How the data were processed

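Exonic and intronic read counts per gene were deposited by the authors for 12 libraries, with hg19 coordinates, per the file headers; these count columns were taken as raw reads. The submitters' processing notes name STAR 2.5.4a, Trim Galore 0.6.2, Trimmomatic 0.39, Picard 2.9.2 and hg19 without roles; the counter, annotation and strand setting are not given in the sources used here, so overlapping and antisense genes cannot be told apart. The authors' deposited TPM values were used for levels between genes and for an alternative test. Per the labels, RNA was extracted with TRIzol, had a RIN above 8.0 and was sequenced in 1 paired-end run. File coordinates count from 0, and 1 was added to start and end. Pseudoautosomal Y copies (36) were left out.

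Counts were scaled by TMM, filtered with filterByExpr (minimum count 10) and tested with edgeR 4.0.16 (quasi-likelihood, robust, 4 group means over all 12 libraries, R 4.3.3), with p-values adjusted by Benjamini-Hochberg over all genes tested; a gene was called at an adjusted p of at most 0.05. CPM are counts scaled to TMM-adjusted library sizes. Intronic reads were fitted separately in the same way. The fit was also run on simulated counts with known changes and independent libraries. Such counts cannot show what a library that stands apart, or technical spread, does to the calls. DESeq2 1.42.0 and limma 3.58.1 on log2(TPM + 1) or log2(TPM + 0.1) served as alternatives. The intronic alternatives were chosen after seeing the data. The members and lists were chosen with earlier results of these data known. Values per library are given for members called with an absolute exonic log2 fold change of at least 0.5 in any of the 5 contrasts, and for HIF1A, GAPDH and LDHA; intronic values per library and calls that 1 library decides were added after values were seen. Of each other list, the 2 genes with the smallest p were named in each line's treatment comparison and in that of the lines under labelled DMSO. No shared effect of the replicate number was seen, so the main fit did not pair the libraries. With 3 libraries against 3, an exact permutation test cannot go below p = 0.1, so none was used.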

Additional observations from a re-analysis of the deposited data

Results flagged for a closer look

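The effect of labelled prexasertib differed between knockout and parent cells by edgeR's interaction test in 19 members on exonic reads and in 5 on intronic reads. Each value given is the log2 fold change in knockout cells less that in parent cells. Over all genes, 9.53% were called positive and 7.32% negative on exonic reads, and 9.84% in either direction on intronic reads. On exonic reads the positive values were 1.24 for ADM, 0.95 for SLC2A3, 0.85 for BHLHE40, 0.72 for VEGFA, 0.72 for ANKRD37, 0.58 for PFKFB3 and 0.23 for HIF1A. The negative exonic values were −0.81 for CA9, −0.58 for BNIP3, −0.36 for BNIP3L, −0.43 for HK1, −0.34 for GPI, −0.50 for PFKL, −0.33 for ALDOA, −0.33 for TPI1, −0.38 for PGK1, −0.48 for PGAM1, −0.30 for ENO1 and −0.29 for LDHA. On intronic reads the values were 0.57 for PFKFB4, 0.57 for ANKRD37, 0.41 for SLC2A3, 0.35 for ENO1 and −0.36 for HK1. ANKRD37 and SLC2A3 were positive in both kinds of read, HK1 was negative in both, and ENO1 was negative on exonic and positive on intronic reads. If the library names and not the records give the treatment, every one of these signs turns round. Each of the 5 intronic calls was lost without any 1 of 5 to 8 libraries. The exonic ENO1 call was lost without any 1 of 7 libraries and that of HIF1A without any 1 of 2.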

How the results depend on the processing

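Of 208 alternative counts of members called on exonic reads, 183 stayed within 1.5 times the value given, and of 178 on intronic reads 155 did. Of 2142 alternative values of called exonic changes in single genes, 1927 kept direction and call, 198 lost the call and 17 turned sign; of 1291 intronic ones, 1202, 88 and 1 did so. With all reads of a gene, 0 members were lower in knockout cells and 1 in parent cells, and 5 had a negative interaction; the sign turned for BNIP3 (0.10), NDRG1 (0.094) and PFKFB4 (0.18) in knockout cells, PFKFB3 (0.025) in parent cells and PFKFB4 (0.20) between the lines under labelled prexasertib. On TPM with a pseudocount of 1 or 0.1, 4 members were lower in knockout cells and 1 in parent cells; knockout against parent gave 11 higher and 10 lower under labelled prexasertib and 21 higher and 5 lower under labelled DMSO. Over all 23045 genes, a pseudocount of 1 gave 1031 lower in knockout cells and 2505 in parent cells. Between the lines it gave 6358 higher and 1327 lower under labelled prexasertib, and 9197 and 1833 under labelled DMSO. On TPM with a pseudocount of 1 and 0.1, the median of all genes moved to 0.15 and 0.25 under labelled DMSO, above the values that turned: ANKRD37 (0.040 and 0.047), ENO1 (0.073 and 0.073), GPI (0.028 and 0.029), MXI1 (0.052 and 0.070) and PDK1 (0.047 and 0.058). BNIP3L turned under labelled prexasertib (0.0016 and 0.0016).

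Intronic calls between the lines under labelled prexasertib were 7 higher in a fit of the 2 groups alone and 2 lower on reads outside other genes, where EGLN3 under labelled DMSO was −0.49. The intronic interaction was positive in 2 members without a filter, and negative in 3 without a filter, 2 with DESeq2 size factors and 2 with DESeq2. With 1 library left out, exonic calls ranged from 10 to 11 higher and 3 to 9 lower in knockout cells, 14 to 21 and 2 to 3 in parent cells, 6 to 9 and 12 to 19 between the lines under labelled prexasertib, 7 to 9 and 7 to 14 under labelled DMSO, and 6 to 9 and 11 to 16 for the interaction. Intronic calls ranged from 19 to 23 and 0 to 0, 19 to 24 and 0 to 0, 7 to 16 and 1 to 3, 7 to 13 and 2 to 4, and 0 to 6 and 0 to 2 in the same order. The causes were not tested.

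Of 18 same-numbered pairs of libraries, 1 had a correlation of deviations over 0.1 (range −0.17 to 0.15), so no shared effect of the replicate number was seen. Deviations from means of 3 libraries cannot show whether same-numbered libraries were prepared together. With a replicate block, exonic calls were 11 higher and 7 lower in knockout cells, 18 and 3 in parent cells, 7 and 17 between the lines under labelled prexasertib, 9 and 11 under labelled DMSO, and 7 and 12 for the interaction. P4HA2, ADM and MIR210HG are limited by few reads. EGLN3 is limited by few exonic reads, and only 12.15% of its intronic reads lie outside other genes.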
